A study of Mus musculus with 4 samples.

Results

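Chylomicron and HDL apolipoproteins are described here as 9 mouse genes listed by function: the apolipoprotein genes Apoa1, Apoa4, Apob, Apoc2 and Apoc3, and Mttp, Sar1b, Apobec1 and Creb3l3, which serve the assembly, export, editing or transcription of lipoproteins. All 9 were found among the 30284 genes in the files, and all 9 were among the 13602 genes with enough counts to be tested. RNA was measured in small-intestinal organoids, which are epithelial cultures grown in Matrigel from isolated crypts of C57BL/6J males labelled as 9 weeks old. Organoids were treated for 6 h with GW3965 at 2 µM, which activates the liver X receptors (LXR), in 2 libraries, or with its vehicle DMSO in the other 2 libraries. Crypts from each of 2 mice were given both treatments, so each group held 1 library of mouse 1 and 1 library of mouse 2, and the p-values measure the spread between 2 cultures per group. The comparison asks which transcripts of the epithelium change when LXR is activated.

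Enterocytes pack dietary fat into chylomicrons. Each particle is built on a single molecule of apolipoprotein B, which the microsomal triglyceride transfer protein (Mttp) loads with lipid in the endoplasmic reticulum, and the GTPase Sar1b drives the coat vesicles that carry the particle to the Golgi. Apolipoprotein A-I, the main protein of HDL, is secreted from the gut with apolipoproteins A-IV, C-II and C-III, and it takes up cholesterol exported by Abca1, a classical LXR target gene.

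The total estimated count was 16572359 to 19486547 per library. The GW3965 library of mouse 1 stood apart: 14.0% of its gene counts came from the mitochondrial genome, against 7.60 to 9.43% in the other 3 libraries, and it lay at 43.1 on the first principal component, against -25.2 to -7.97. The values of the 9 genes are therefore given for each mouse below. Markers fitted the labelled tissue: the Paneth cell defensin gene Defa24 had 5372 to 6396 normalised CPM (counts scaled to the library size with TMM factors) and the brush-border gene Vil1 885 to 1477. The colon gene Hoxb13 had 1 to 3 counts and Car1 24 to 44, although the labels describe RNA extraction from colon. Of the hepatocyte markers Fgb had 0 counts in every library, Alb 1 to 6 and Ttr 15 to 25, so the apolipoprotein counts stood beside hepatocyte markers at or near 0. The RNA is of whole cultures, and fewer cells of a type and less RNA per cell cannot be told apart.

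None of the 9 genes passed the test for a difference between GW3965 and DMSO. After Benjamini-Hochberg adjustment over every tested gene (edgeR, quasi-likelihood), 0 of the 9 had an adjusted p under 0.05, against 8 of 13602 genes (0.0588%), and each of the 9 had an adjusted p of 0.99986. At an unadjusted p under 0.05 there were also 0 of 9, against 1.05% of all genes, and DESeq2 called 0 of 9, against 0.128% (0.109% higher, 0.0192% lower). With the mouse as a block, 0 of 9 passed, against 48 genes (0.353%, with 0.228% higher and 0.125% lower). The prior of that fit was infinite, so its p does not reflect a gene's own spread. The log2 fold changes of the 9 ran between -0.10 for Apobec1 and 0.52 for Apoa1, with a median of 0.17, against 0.0003207 over all genes. Per mouse the median of the 9 was 0.50 in mouse 1 and -0.03 in mouse 2, against -0.0015 and -0.0039 over all genes. The sign was shared by both mice in 3 of the 9 genes (Apoa1, Apoa4 and Apobec1), a share close to the 33.5% of all genes. A p that misses the threshold does not show that a gene was unaffected, and the 95% interval of each difference is given below.

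**Figure D1:**
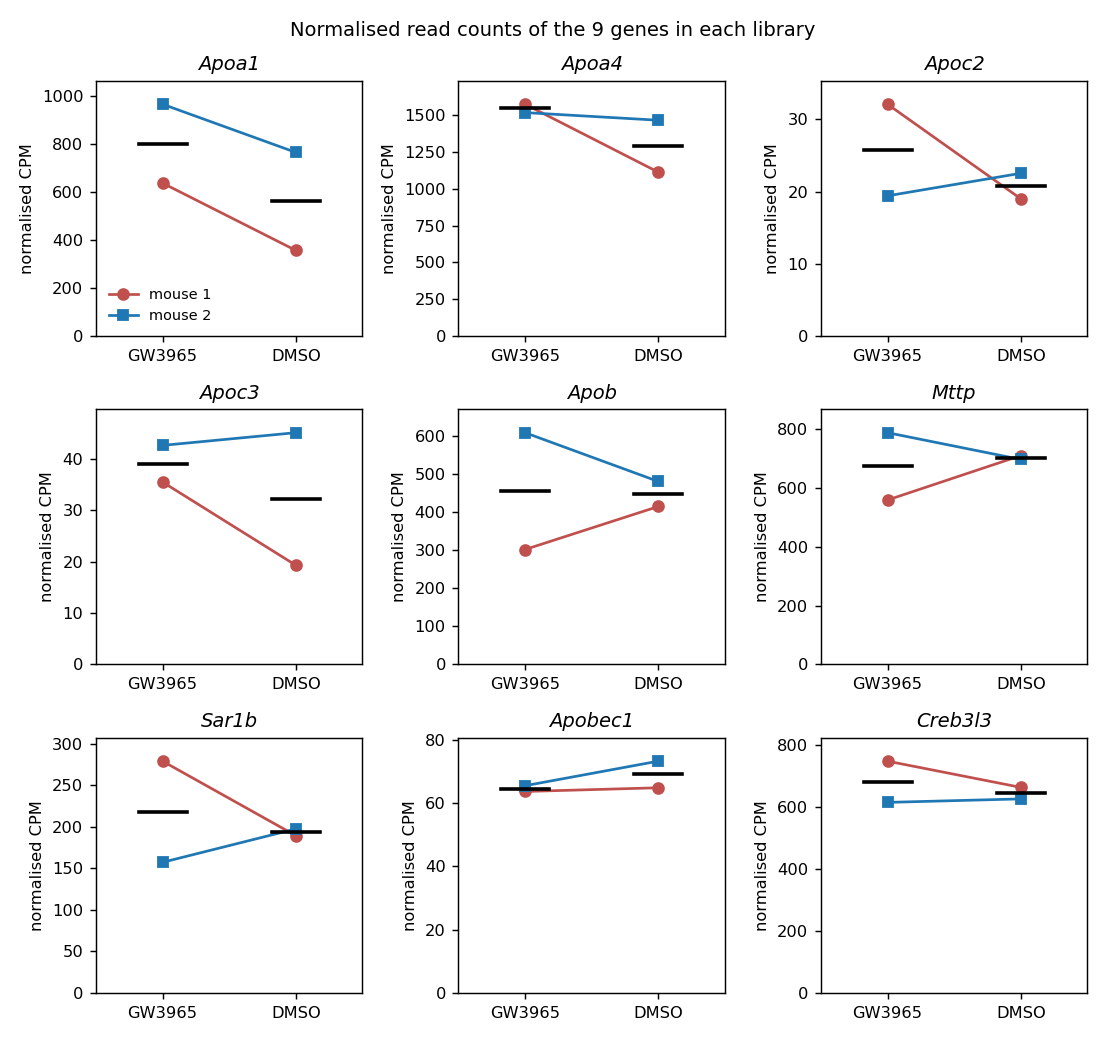
Normalised CPM (vertical axis, from 0) of each gene in the 4 libraries, with GW3965 on the left and DMSO on the right of each panel; lines join the libraries of 1 mouse and black bars are means of 2 libraries. Apoa1 sloped the same way in both mice, whereas the lines of Apob, Mttp, Sar1b and Apoc2 slope in opposite directions in the 2 mice.

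Apoa1, the gene of the main HDL protein, had the largest positive difference. It lies on chromosome 9 (46228580 to 46230466, plus strand, GRCm38; identifier ENSMUSG00000032083). Normalised CPM were 636 and 965 in the GW3965 libraries of mouse 1 and mouse 2, against 356 and 764 in their DMSO libraries. Each GW3965 library lay above the DMSO library of the same mouse, but the groups overlapped, since the DMSO culture of mouse 2 lay above the GW3965 culture of mouse 1. The means were 800.4 ± 232 CPM with GW3965 and 560.0 ± 288 CPM with DMSO (SD, n = 2 each), a log2 fold change of 0.52 ± 0.37 (standard error, 95% interval -0.30 to 1.33). The difference was 0.84 in mouse 1 and 0.34 in mouse 2. With the DMSO culture of mouse 1 left out the log2 fold change was 0.07, and without that of mouse 2 it was 1.16.

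Apoa4 and Apoc3 are neighbours of Apoa1. Apoa4, whose protein is made in quantity by the small intestine during fat absorption, lies at 46240696 to 46243459 on the plus strand (ENSMUSG00000032080). It had 1575 and 1518 CPM in the GW3965 libraries of mouse 1 and mouse 2, against 1113 and 1466 in the DMSO libraries. This was the only one of the 9 genes whose groups did not overlap, and 9.28% of all genes were likewise higher with GW3965 without overlap (lower, 0 of 9, against 9.18%). The log2 fold change was 0.26 ± 0.26 (95% interval -0.31 to 0.84), made up of 0.50 in mouse 1 and 0.05 in mouse 2. The noncoding genes annotated on the other strand, Gm47528 and Gm10680, overlap Apoa4, and the sources used here do not say whether counting used strand.

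Apoc3, the gene of an inhibitor of lipoprotein lipase, lies between them on the minus strand (46232933 to 46235636, ENSMUSG00000032081). It was a weaker gene with 376 to 851 counts per library. It had 35.5 and 42.6 CPM with GW3965 in mouse 1 and mouse 2, against 19.3 and 45.1 with DMSO. The DMSO library of mouse 1 alone was low, and the other 3 lay close together. The log2 fold change was 0.28 ± 0.33 (95% interval -0.46 to 1.02), with 0.88 in mouse 1 and -0.08 in mouse 2. It was -0.21 once the DMSO culture of mouse 1 was left out.

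The mean pattern of Apoa1, Apoa4 and Apoc3 over the 4 libraries was lowest in the DMSO library of mouse 1 (-0.66 on the centred log2 scale) and highest in the GW3965 library of mouse 2 (0.34). Among 5342 other genes with a mean log2 CPM from 5 upwards, those nearest to this pattern by Euclidean distance over the 4 libraries were Hspa1b (0.181), Fgl2 (0.259), Tent5a (0.261), Pdgfa (0.277) and Gramd1b (0.281). Apoc3 itself lay at 0.223, Apoa1 at 0.318 and Apoa4 at 0.450. With 4 libraries this likeness is a description only.

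Apoc2 encodes the activator of lipoprotein lipase and lies on chromosome 7 (19671579 to 19677941, minus strand, ENSMUSG00000002992). It had 32.1 and 19.4 CPM with GW3965 in mouse 1 and mouse 2, against 19.0 and 22.5 with DMSO. Only the GW3965 library of mouse 1 was high. The log2 fold change was 0.31 ± 0.25 (95% interval -0.25 to 0.87), and it was -0.10 without that library. Of its 31-base words, 78.8% also occur in transcripts of other genes, most often in Gm44805. That gene overlaps Apoc2 on the same strand and was listed at 0 in every library, so the split of reads between them is uncertain. The shorter Apoc2 transcript of 569 bases was listed at 53 and 71 counts with GW3965 and at 0 and 110 with DMSO.

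Apob, the scaffold of the chylomicron, and Mttp, which lipidates it, differed in opposite directions in the 2 mice. Apob lies on chromosome 12 (7977648 to 8016835, plus strand, ENSMUSG00000020609) and had 302 and 609 CPM with GW3965 in mouse 1 and mouse 2, against 415 and 481 with DMSO. The GW3965 libraries held both the lowest and the highest value. The means were 456 ± 217 CPM with GW3965 and 448 ± 46.5 CPM with DMSO (SD, n = 2 each), and the log2 fold change was 0.02 ± 0.32 (95% interval -0.70 to 0.75). Leaving out the GW3965 culture of mouse 1 gave 0.44, and leaving out that of mouse 2 gave -0.57.

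Mttp lies on chromosome 3 (138089854 to 138144968, minus strand, ENSMUSG00000028158). It had 559 and 788 CPM with GW3965 in mouse 1 and mouse 2, against 709.7 and 697 with DMSO, and again the GW3965 libraries lay on either side of both DMSO libraries. Its log2 fold change was -0.06 ± 0.26 (95% interval -0.64 to 0.51), and 0.16 when the GW3965 culture of mouse 1 was left out. Trmt10a on the other strand overlaps the Mttp locus and held 160 to 201 counts per library, against 9172 to 15012 for Mttp.

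Sar1b, the coat GTPase whose human gene is mutated in chylomicron retention disease, lies on chromosome 11 (51763687 to 51791925, plus strand, ENSMUSG00000020386). It had 279 and 157 CPM with GW3965 in mouse 1 and mouse 2, against 189.5 and 198 with DMSO. Here the GW3965 library of mouse 1 was the highest and that of mouse 2 the lowest, the reverse of Apob and Mttp. The log2 fold change was 0.17 ± 0.28 (95% interval -0.46 to 0.81), and -0.30 when the GW3965 culture of mouse 1 was left out.

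Apobec1 and Creb3l3 were the steadiest. Apobec1 encodes the cytidine deaminase that edits the Apob mRNA and lies on chromosome 6 (122577792 to 122602444, minus strand, ENSMUSG00000040613). It had 63.6 and 65.4 CPM with GW3965 in mouse 1 and mouse 2, against 64.8 and 73.2 with DMSO (log2 fold change -0.10 ± 0.18, 95% interval -0.50 to 0.31). Creb3l3, whose protein CREB-H is a membrane-bound transcription factor of liver and gut that acts on lipid genes including apolipoprotein genes, lies on chromosome 10 (81084324 to 81098874, minus strand, ENSMUSG00000035041). It had 749 and 616 CPM with GW3965, against 665 and 627 with DMSO (0.08 ± 0.24, 95% interval -0.46 to 0.62). The log2 differences in mouse 1 and mouse 2 were -0.03 and -0.16 for Apobec1, and 0.17 and -0.03 for Creb3l3.

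**Figure D2:**
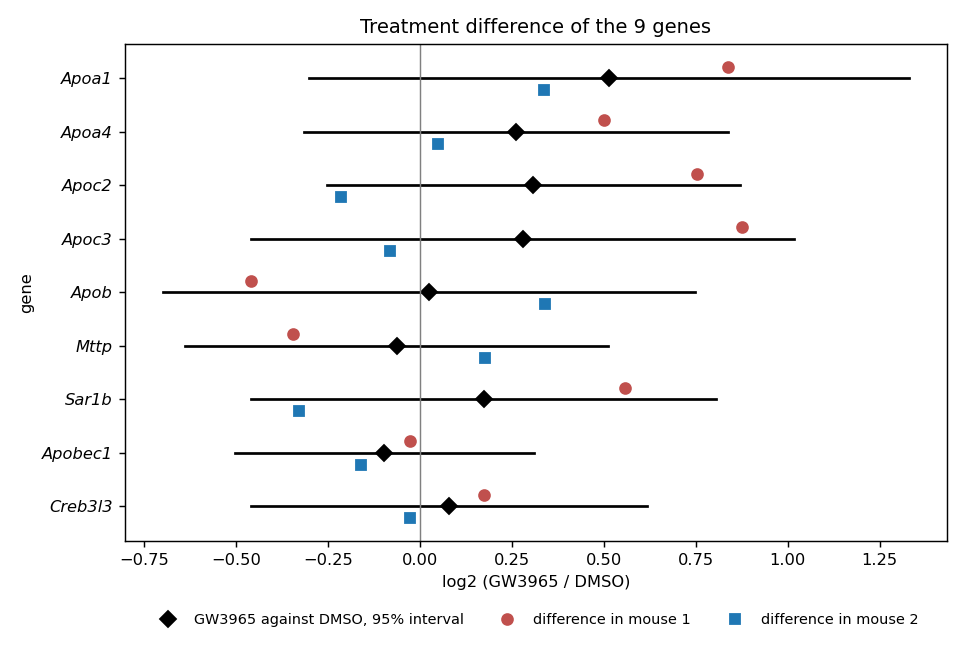
Log2 ratio of GW3965 to DMSO (horizontal axis) for each gene; diamonds and bars are the fitted fold change with its 95% interval, and circles and squares are the differences within mouse 1 and mouse 2. All 9 intervals span 0, and in 6 genes the 2 mice lie on opposite sides of 0.

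Levels could be compared between genes only per transcript length, as TPM, which divides by transcript length and library total and was summed per gene. In the GW3965 cultures Apoa1 stood at 958 ± 383 TPM and Apoa4 at 943 ± 88.6, followed by Creb3l3 at 485 ± 11.9, Sar1b at 213 ± 64.4, Mttp at 180.4 ± 64.0, Apoc3 at 113 ± 28.0, Apob at 68.6 ± 31.8, Apoc2 at 57.0 ± 12.8 and Apobec1 at 33.9 ± 4.64 (SD, n = 2). In the DMSO cultures the order was the same except that Apoa4 (828 ± 128 TPM) stood before Apoa1 (687 ± 329 TPM). Apoa1 and Apoa4 overlapped over the 4 libraries, as did Sar1b with Mttp, Apoc3 with Apob, Apoc3 with Apoc2, and Apob with Apoc2. Creb3l3 (467 to 564 TPM) lay below every library of Apoa4 and above every library of Sar1b, but it overlapped with Apoa1, which had 454 TPM in the DMSO library of mouse 1. Apobec1 (30.7 to 40.6 TPM) lay below every library of Apoc2. By TPM, Apoa1 ranked between 131 and 336 and Apoa4 between 161 and 221 among all genes of a library. Together the 9 genes took 0.423 and 0.471% of gene counts with GW3965 in mouse 1 and mouse 2, against 0.366 and 0.429% with DMSO.

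Within each mouse the differences ran with the length of the transcripts, in opposite directions and less closely in mouse 2. In mouse 1 the differences of the short transcripts were positive, with 0.88 for Apoc3 (533 bases on average over its transcripts, weighted by counts), 0.75 for Apoc2 (623 bases), 0.84 for Apoa1 (1032 bases) and 0.56 for Sar1b (1198 bases). The longest were negative, with -0.35 for Mttp (3963 bases) and -0.46 for Apob (11990 bases). In mouse 2 Apob (0.34) and Mttp (0.18) were positive and Sar1b (-0.33) and Apoc2 (-0.21) negative. Apoa1 left this order in mouse 2, where it was positive although short. Other genes left it too: Apobec1 (-0.16, 2109 bases) lay below Apoc3 (-0.08), and Apoa4 (0.05, 1815 bases) lay above Creb3l3 (-0.03, 1975 bases).

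The medians of all tested genes ran the same way at a smaller size. Genes under 1000 bases had a median difference of 0.293 in mouse 1 and -0.168 in mouse 2 (1425 genes), and genes of 6000 bases or more had -0.105 and 0.124 (1110 genes). Among genes with a mean log2 CPM from 5 upwards the slope in mouse 1 was steeper, with 0.291 and -0.179 under 1000 bases and -0.229 and 0.145 from 6000 bases. Across 13568 genes of known length, Spearman's rho of length and difference was -0.23 in mouse 1 and 0.342 in mouse 2, as a description of 2 pairs of libraries, in which all genes come from the same libraries. After subtraction of the median of its length class, Apoa1 was still at 0.76 in mouse 1 and 0.41 in mouse 2, and Apoa4 at 0.42 and 0.12. Apob was at -0.35 and 0.22 and Sar1b at 0.48 and -0.26 on the same scale. Against the better expressed genes of the same length class, Apob was at -0.23 and 0.20, Mttp at -0.14 and 0.12, Apoa1 at 0.84 and 0.40, Apoa4 at 0.50 and 0.12, and Sar1b at 0.56 and -0.26. The part of transcript length or RNA quality in the differences of the 9 genes was not tested.

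**Figure D3:**
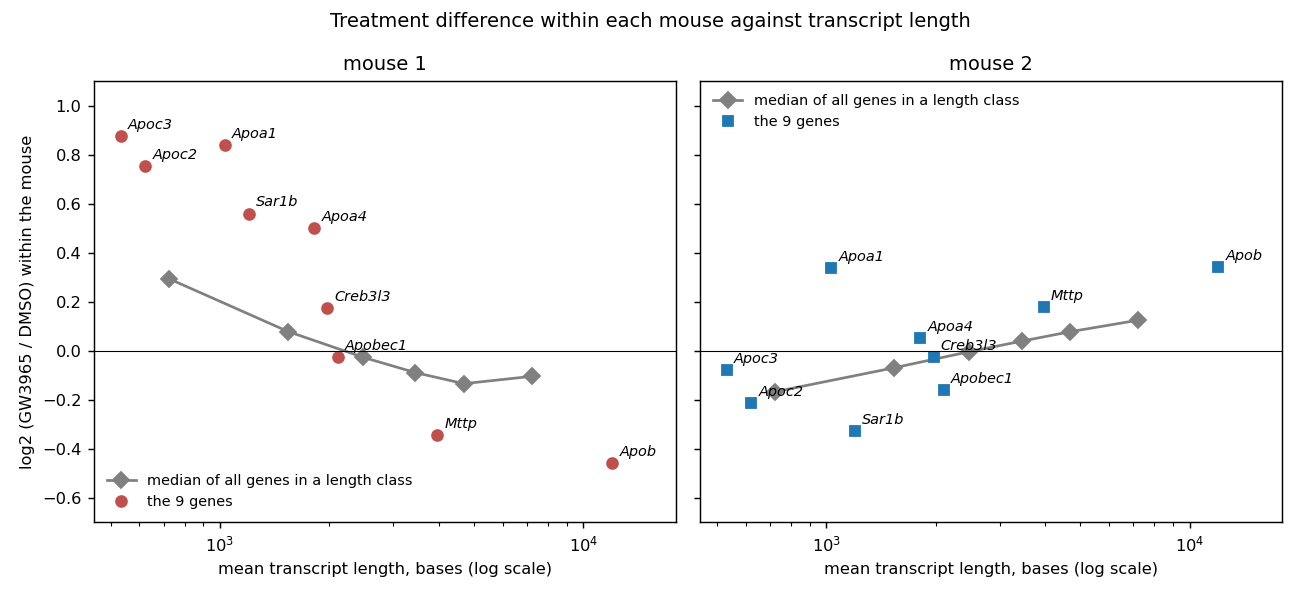
Log2 ratio of GW3965 to DMSO within mouse 1 (left) and mouse 2 (right) against mean transcript length in bases on a log axis; coloured points are the 9 genes and grey diamonds the medians of all tested genes in 6 length classes. The slope is downward in mouse 1 and upward in mouse 2.

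The counts of Apob came from 2 of its annotated transcripts. The full-length transcript of 13934 bases had 3870 and 9853 counts with GW3965 in mouse 1 and mouse 2, against 6827 and 7611 with DMSO. A transcript of 2174 bases, which runs from 8012359 to 8016835 and so holds only the 3' end of the gene, had 1089 and 1754 counts, against 1256 and 1459. Its share of the Apob counts was 21.97% and 15.1% with GW3965, against 15.5% and 16.1% with DMSO, so the GW3965 library of mouse 1 stood apart here too. In that mouse the full-length transcript differed by -0.63 and the 3'-end transcript by -0.02 on the log2 scale, whereas in mouse 2 they differed by 0.41 and 0.30. Only 26 of the 31-base words of the short transcript occur in no other transcript, so the split was an estimate from the distribution of reads.

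Editing of the Apob mRNA by the Apobec1 enzyme turns a glutamine codon into a stop codon and gives the shorter apolipoprotein B of chylomicrons. The site is shown because it is the target that links these 2 members. It lies in exon 26 of 29 (8005736 to 8013202), at codon 2179 of 4505, at chr12:8008047-8008076 on the plus strand of GRCm38, and the sequence is that of the GENCODE M21 transcript. Capitals mark the edited CAA codon and the downstream mooring sequence that the editing complex recognises.
Apob editing site: cgcgataCAAttTGATCAGTATAttaaaga
The 3'-end transcript begins downstream of this site. Summed counts do not tell edited from unedited mRNA, so the level of editing was not analysed here.

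Apobec1 counts were divided mainly among 3 transcripts. The transcript of 2072 bases, which starts at the second exon of the other 2, carried 54.9% and 50.0% of Apobec1 counts with GW3965 in mouse 1 and mouse 2, against 39.3% and 32.0% with DMSO. The transcript of 2127 bases carried 32.3% and 45.4%, against 49.4% and 55.3%. In normalised CPM the groups did not overlap for either transcript and the sign was the same in both mice, as for 13.4% (higher) and 12% (lower) of all transcripts tested and for 39.5% (same sign). Neither difference was past the threshold (log2 fold changes 0.46 ± 0.18 and -0.52 ± 0.29, edgeR adjusted p = 0.99998 over 32357 transcripts). Only 2 of the 31-base words of the first and 0 of the second occur in no other transcript, so the split between them is uncertain. Of all transcripts tested, 0 (0%) had an adjusted p under 0.05 in edgeR, with or without the mouse block, and 2.61% had an unadjusted p under 0.05. Among those of the 9 genes the short Apoa1 transcript of 602 bases had 110 and 110 counts with GW3965, against 47 and 62 with DMSO (1.12 ± 0.38, unadjusted p = 0.036).

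Creb3l3 carried 2 retained-intron transcripts. That of 744 bases held 14.5% and 16.03% of its counts with GW3965 in mouse 1 and mouse 2, against 21.4% and 16.3% with DMSO. That of 922 bases held 5.92% and 2.70%, against 3.01% and 3.59%. The coding transcript of 2294 bases carried 75.6 to 81.2% of the counts in the 4 libraries. Because TPM divides by length, the short transcripts weigh more in the TPM levels above: the coding transcript made up 45.7 to 53.8% of the Creb3l3 TPM, and the 3'-end transcript 54.9 to 66.0% of the Apob TPM.

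**Figure D4:**
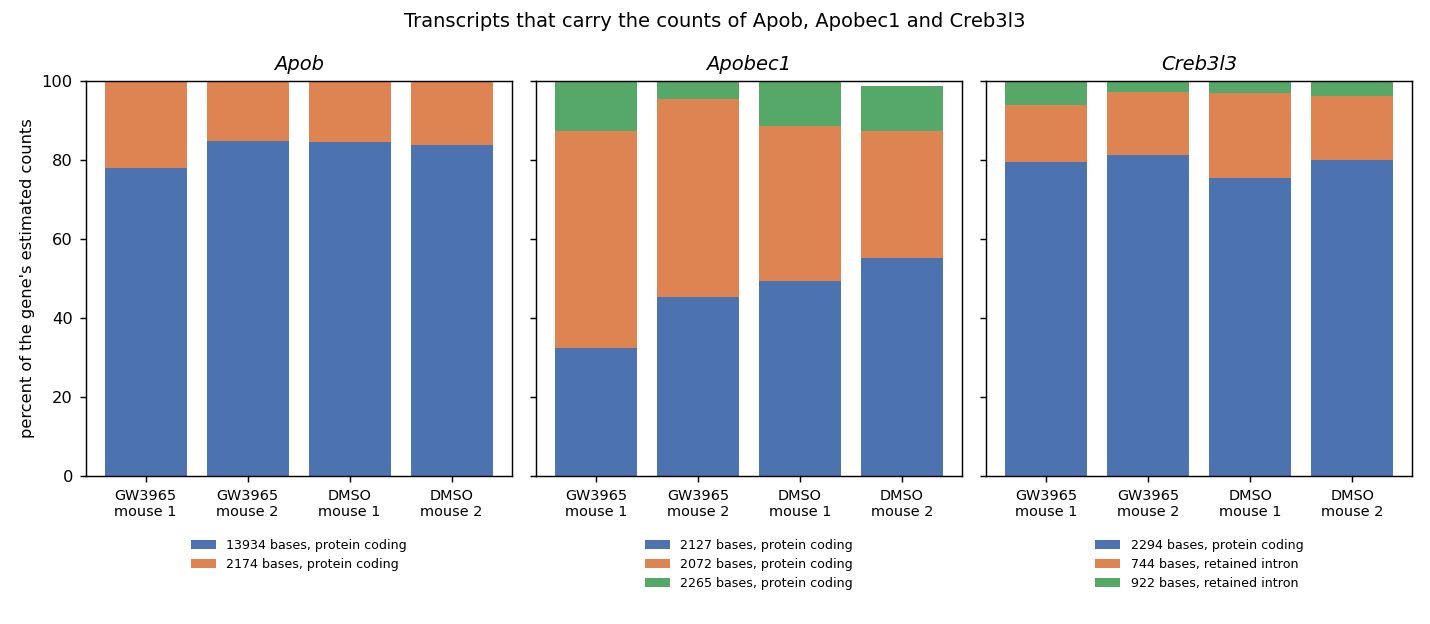
Percent of the estimated counts of Apob, Apobec1 and Creb3l3 (vertical axis) that kallisto gave to each annotated transcript with a mean share of at least 1%, by library, with the GW3965 libraries on the left. The 3'-end transcript of Apob reaches 21.97% in the GW3965 library of mouse 1, and the Apobec1 transcript of 2072 bases has its 2 highest shares in the GW3965 libraries.

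The fitted difference between the mice was larger in size than that between treatments for all of the 9 genes except Apoa4 and Apoc2. In a fit with treatment and mouse as terms, added after the data were seen, 0 of the 9 passed for mouse 2 against mouse 1, against 93 of 13602 genes (0.684%, edgeR; 0.338% higher, 0.346% lower). The prior of this fit was infinite, so its p does not reflect a gene's own spread. Apoa1 had a log2 difference of 0.85 ± 0.31 (adjusted p = 0.412), Apoc3 0.74 ± 0.23 (adjusted p = 0.163) and Apob 0.61 ± 0.30 (adjusted p = 0.961), all higher in mouse 2. In the fit Mttp and Apobec1 were also higher in mouse 2, by 0.23 ± 0.30 and 0.11 ± 0.24, whereas Sar1b (-0.38 ± 0.29) and Creb3l3 (-0.18 ± 0.30) were lower. For Mttp and Sar1b this direction came from the GW3965 libraries alone. With DMSO, mouse 1 and mouse 2 had 709.7 and 697 CPM for Mttp, and 189.5 and 198 CPM for Sar1b. The libraries of the 2 mice did not overlap for 5 of the 9 (Apoa1, Apoc3, Apob, Apobec1 and, in the other direction, Creb3l3), against 41.2% of all genes. The mice did not overlap for 11 of 12 enterocyte markers, and 3 passed (Lct, Treh and Slc2a2, with log2 differences of 1.75 ± 0.24, 1.29 ± 0.25 and 0.85 ± 0.23). They also did not overlap for 5 of 5 Paneth, 4 of 4 tuft, 4 of 5 enteroendocrine and 3 of 5 goblet cell markers. For stem cell and leukocyte markers this held for 1 of 5 and 2 of 5. The leukocyte marker Gzma also passed, with a log2 difference of -0.93 ± 0.25 for mouse 2 against mouse 1. The summed level of the 12 enterocyte markers was 2562 and 3934 CPM with GW3965 in mouse 1 and mouse 2, against 3216 and 3800 with DMSO. Paneth markers went the other way, with 12250 and 10170 CPM with GW3965, against 11500 and 9845 with DMSO. Leukocyte markers summed to 175 and 63.6 CPM with GW3965, against 85.1 and 79.6 with DMSO. The part of these cell types in the results was not tested.

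The authors' deposited table of log2 CPM showed much smaller differences between the mice than the summed counts. Over 8444 shared genes the median size of the difference was 0.0164 in the authors' deposited table and 0.165 in the counts, while that between treatments was 0.0587 and 0.0999. Apoa1 differed by 0.09 between mouse 2 and mouse 1 in the authors' deposited table and by 0.85 in the counts, and Apoc3 by 0.07 and 0.74. The sources used here do not say how that table was scaled. In the authors' deposited table Apoa1 stood at 9.70 and 9.69 with GW3965 in mouse 1 and mouse 2, against 9.15 and 9.33 with DMSO. Apoa1 and Apoa4, 2 of the 9, were higher with GW3965 without overlap in the authors' deposited table and 0 of the 9 lower, against 13.9% and 15.6% of its genes. On these values limma gave Apoa1 a log2 fold change of 0.46 (unadjusted p = 0.00606, the smallest of the 9, adjusted p = 0.866). That fit had no mouse term, although the mice differ far less in these values than in the counts. Its p therefore does not reflect the spread between cultures seen in the counts.

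**Figure D5:**
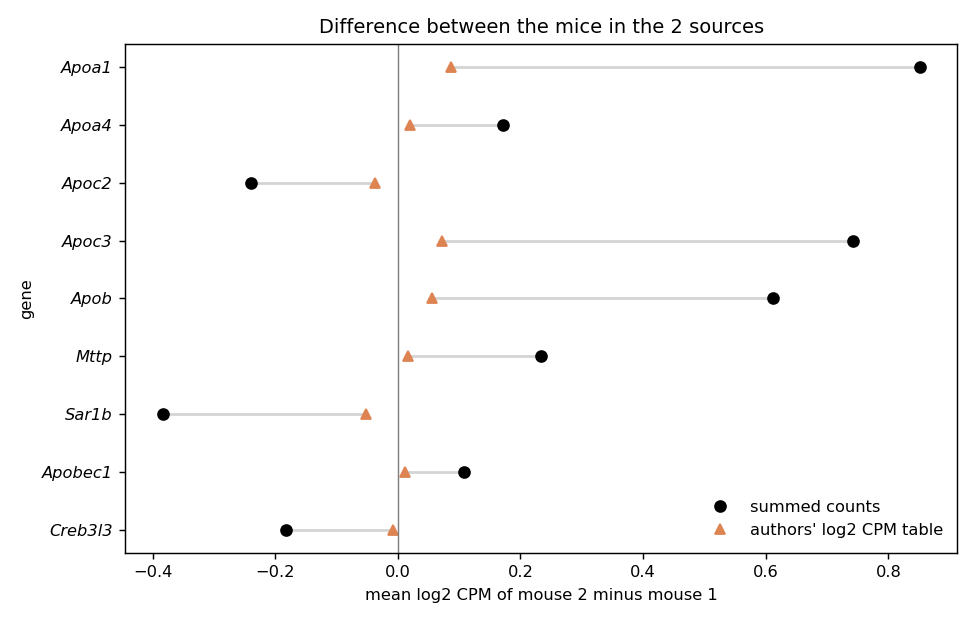
Mean log2 CPM of mouse 2 minus mouse 1 (horizontal axis) for each gene, from the summed counts (circles) and from the authors' deposited table (triangles). Every triangle lies nearer to 0 than its circle.

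The promoters bear on the treatment, since LXR with its partner RXR binds 2 direct copies of the hexamer AGGTCA spaced by 4 bases. RefSeq windows (GRCm38.p6) of 300 bases, 250 before the start and 50 after it, were found for 8 of the 9 genes, with 2 windows for Creb3l3 and none for Apoc3. This repeat, with any 4 bases between the copies and searched on both strands, was in 0 of these 9 windows and in 0.0152% of all 32851. With up to 1 mismatch in each hexamer it was in 0 of 9 and in 1.75% of all. The hexamer alone was in the window of Apoc2, in 1 of the 2 windows of Creb3l3 and in 16.3% of all. No match says only that these letters are not in the window.

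Sites for HNF4, a nuclear receptor that maintains enterocyte gene expression, were also searched, with letters chosen after the windows had been read. At least 1 of CAAAGTCCA, CAAAGTTCA, CAAAGGTCA and CAAAGGTCC (both strands; CAAAGGTCA contains the hexamer) was in the windows of Apoa4, Apob and Apobec1, 3 of 9, and in 1.64% of all windows. Since these letters were chosen after the reading, 3 of 9 beside 1.64% is a description and not a test. Also searched were TATAAA (2 of 9 windows, 13.6% of all), AGATAA (1 of 9, 11.2% of all) and GTTAAT (1 of 9, 7.1% of all). The windows of Apoa4, Apob, Apobec1 and Apoc2 and the matching one of Creb3l3 are shown because they hold HNF4 letters or the hexamer. Capitals mark the HNF4 letters on either strand and the hexamer AGGTCA.
Apoa4 promoter, chr9:46240594-46240893, plus strand: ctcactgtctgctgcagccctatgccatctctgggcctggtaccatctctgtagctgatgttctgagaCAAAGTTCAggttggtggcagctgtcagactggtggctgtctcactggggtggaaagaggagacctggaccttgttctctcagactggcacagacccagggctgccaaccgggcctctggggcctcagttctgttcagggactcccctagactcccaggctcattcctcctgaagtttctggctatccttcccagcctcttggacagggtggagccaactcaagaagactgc
Apob promoter, chr12:7977427-7977726, plus strand: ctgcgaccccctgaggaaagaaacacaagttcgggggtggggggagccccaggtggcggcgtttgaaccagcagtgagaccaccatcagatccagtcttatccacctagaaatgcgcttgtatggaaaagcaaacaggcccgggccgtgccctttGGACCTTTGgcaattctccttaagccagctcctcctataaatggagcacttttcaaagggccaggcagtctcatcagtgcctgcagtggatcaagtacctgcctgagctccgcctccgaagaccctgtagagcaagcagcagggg
Apobec1 promoter, chr6:122602395-122602694, minus strand: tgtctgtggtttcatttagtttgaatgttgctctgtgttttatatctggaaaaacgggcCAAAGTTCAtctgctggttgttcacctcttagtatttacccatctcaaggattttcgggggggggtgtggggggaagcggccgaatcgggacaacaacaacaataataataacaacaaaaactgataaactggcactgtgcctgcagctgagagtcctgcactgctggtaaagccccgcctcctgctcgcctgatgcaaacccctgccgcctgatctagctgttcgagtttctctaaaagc
Apoc2 promoter, chr7:19677892-19678191, minus strand: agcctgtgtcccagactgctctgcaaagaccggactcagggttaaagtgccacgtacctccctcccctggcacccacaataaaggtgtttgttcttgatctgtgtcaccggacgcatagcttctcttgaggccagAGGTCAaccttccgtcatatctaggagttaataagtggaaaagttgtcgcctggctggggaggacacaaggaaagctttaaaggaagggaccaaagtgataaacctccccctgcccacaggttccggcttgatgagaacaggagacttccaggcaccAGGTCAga
Creb3l3 promoter, chr10:81092542-81092841, minus strand: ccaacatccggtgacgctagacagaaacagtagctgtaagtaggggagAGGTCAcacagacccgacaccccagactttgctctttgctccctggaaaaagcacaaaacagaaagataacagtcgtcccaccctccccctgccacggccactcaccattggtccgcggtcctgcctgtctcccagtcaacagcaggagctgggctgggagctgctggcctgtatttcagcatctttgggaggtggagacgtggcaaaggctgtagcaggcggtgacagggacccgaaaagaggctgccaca
Positions are counted from the RefSeq start of each window, which can differ from the annotated start of the gene. The Apoa4 window spans the annotated gene start at 46240696, and the Creb3l3 window lies inside its gene. The HNF4 match lies at position -182 from the RefSeq start in Apoa4, -191 in Apobec1 and -95 in Apob. The hexamers of Apoc2 lie at -115 and 42 and that of Creb3l3 at -202. A match is a description and not a site of binding.

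Other genes of the pathway were taken from 7 lists chosen by function, with earlier results of these data known. Of 9 further apolipoprotein genes only Clu and Apoa2 had enough counts to be tested, and 0 passed. Clu, the clusterin gene, had 81.9 and 124 CPM with GW3965 in mouse 1 and mouse 2, against 119 and 116 with DMSO, and Apoa2, an HDL protein gene, had 1.22 and 0.682, against 1.39 and 1.75. Apoa5 and Apoc1 were listed at 0 in every library, where a count of 0 allows up to 3 counts, and Apoc4, Apod, Apof, Apoh and Apom had at most 8 counts in a library.

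Genes of lipoprotein assembly and of COPII export, the coat in which Sar1b works, were all expressed: 22 of 22 were tested, 0 passed, and their median log2 fold change was -0.05. P4hb, the protein disulphide isomerase that is the partner subunit of Mttp, had 1129 and 1048 CPM with GW3965, against 1101 and 1126 with DMSO, and is named with its values already known. The smallest p belonged to Preb, the exchange factor of Sar1 (84.7 and 52.6 CPM, against 46.4 and 55.04 with DMSO, log2 fold change 0.44 ± 0.24), and to the coat genes Sec23b (-0.25 ± 0.24) and Sec23a (-0.22 ± 0.26). All 3 differed in sign between the mice, with 0.87 in mouse 1 and -0.07 in mouse 2 for Preb, -0.66 and 0.07 for Sec23b, and -0.68 and 0.13 for Sec23a.

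Of 8 Apob editing cofactor genes 8 were tested and 0 passed, with a median of -0.12. A1cf, the cofactor gene that binds the mooring sequence, had 18.5 and 20.6 CPM with GW3965, against 23.9 and 18.5 with DMSO (-0.12 ± 0.21). Hnrnpab (-0.24 ± 0.29) and Celf2 (0.40 ± 0.30) were the others with the smallest p; mouse 1 and mouse 2 gave -0.74 and 0.16 for Hnrnpab, 0.63 and 0.20 for Celf2, and -0.37 and 0.15 for A1cf. Of 12 genes of triglyceride supply 12 were tested and 0 passed, with a median of -0.06. The fatty acid binding protein genes Fabp2 and Fabp1 had 0.40 ± 0.31 and 0.23 ± 0.33, and the lipid droplet gene Plin3 had -0.22 ± 0.22. Mouse 1 and mouse 2 gave 0.86 and -0.18 for Fabp2, 0.35 and 0.02 for Fabp1, and -0.24 and -0.21 for Plin3.

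Of 11 genes of HDL formation and lipoprotein lipolysis 6 were tested and 2 rose, against 0.0588% of all genes. Both encode exporters of cholesterol to apolipoprotein A-I or HDL. Abca1 had 42.8 and 60.4 CPM with GW3965 in mouse 1 and mouse 2, against 0.462 and 1.75 with DMSO (log2 fold change 5.54 ± 0.43, edgeR adjusted p = 0.00134). Abcg1 had 25.7 and 28.7 CPM, against 1.39 and 1.27 (4.35 ± 0.25, adjusted p = 0.000157). The lipase genes Lpl (0.31 ± 0.43) and Lipg (-0.17 ± 0.28) and Bmp1 (0.05 ± 0.26), which encodes a protease that cleaves proapolipoprotein A-I, did not pass; mouse 1 and mouse 2 gave 0.41 and 0.16 for Lpl, -0.35 and -0.02 for Lipg, and 0.24 and -0.13 for Bmp1.

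Of 17 transcription factor genes of the intestinal apolipoproteins 16 were tested and 1 rose, against 0.0588% of all genes. Ppara had 16.02 and 20.4 CPM with GW3965 in mouse 1 and mouse 2, against 4.31 and 4.08 with DMSO (2.12 ± 0.24, adjusted p = 0.0142). The smallest p among the rest were those of Ppargc1a (-0.41 ± 0.27), Foxa3 (-0.28 ± 0.22) and Cdx2 (-0.24 ± 0.22), with -0.85 in mouse 1 and 0.04 in mouse 2 for Ppargc1a, -0.45 and -0.08 for Foxa3, and -0.49 and 0.02 for Cdx2. Hnf4a, chosen after its values were seen, had 844 and 1310 CPM with GW3965 in mouse 1 and mouse 2, against 1228 and 1259.5 with DMSO (-0.21 ± 0.28), so like Apob and Mttp it was lowest in the GW3965 library of mouse 1. Of 7 relatives and proteases of Creb3l3 7 were tested and 0 passed. Mbtps1 and Mbtps2, whose proteases release CREB-H from the membrane, had -0.15 ± 0.18 and -0.10 ± 0.20, and Creb3l2 had 0.17 ± 0.22. Mouse 1 and mouse 2 gave -0.31 and 0.01 for Mbtps1, -0.18 and -0.01 for Mbtps2, and -0.03 and 0.32 for Creb3l2.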

How the data were processed

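Poly-A RNA of 4 organoid libraries was sequenced as single-end reads with a stranded kit, per the labels' protocols. The submitters' processing notes name CASAVA 1.7, FastQC, kallisto and mm10; the sources used here give no transcript release, kallisto version or use of strand. Per the file headers, the authors deposited estimated counts and TPM per transcript for each library. The authors also deposited the same estimated counts rounded to whole numbers (largest gap 0.5) and log2 CPM for 8524 gene symbols.

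Of 88198 transcripts, 86119 (97.6%) matched GENCODE M21 (GRCm38), and their estimated counts were summed per gene and rounded. The unmatched transcripts (0.685 to 0.854% of counts) stayed out of library sizes. GW3965 was compared with DMSO in edgeR 4.0.16 (R 4.3.3; filterByExpr, TMM, glmQLFit, glmQLFTest), with Benjamini-Hochberg adjustment over all genes and a threshold of 0.05; standard errors were taken from the F statistic. Residual and prior degrees of freedom were 2 and 7.78. Within-mouse differences are log2 CPM with a prior count of 2. A shared number marks a shared mouse, per the labels, and the libraries' deviations from the group means correlated at 0.0724 across genes. The fit with the mouse as a block is the paired alternative and leaves 1 residual degree of freedom. Its terms are those of the contrast between mice, so its prior was infinite too. Its p therefore does not reflect a gene's own spread. DESeq2 1.42.0 and limma 3.58.1 were alternatives, with log2(TPM + 1) for TPM. All pairs of libraries differed beyond counting noise (chi-square over degrees of freedom 10.5 to 77.6). The fits were tested on simulated data.

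The contrast between mice and the motif letters were added after the data were seen. The members and gene lists were chosen with earlier results of these data known. All 9 members are named, and of each list the called genes and up to 3 more with the smallest p; exceptions are marked where they occur.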

Additional observations from a re-analysis of the deposited data

How the results depend on the processing

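Of 117 log2 fold changes of the 9 genes under 13 other settings, 105 kept their sign, 12 turned, and 0 passed the threshold (lowest adjusted p 0.0916, for Apoc2 without the GW3965 library of mouse 2). The differences of Apoa1, Apoa4 and Apobec1 kept their sign in all 13. Apob turned to -0.0663 in limma-voom, -0.0584 with the mouse as a replicate block and -0.0286 on log2(TPM + 1), where Creb3l3 turned to -0.0826. Mttp turned to 0.0322 on the authors' log2 CPM. The cause was not tested. With 1 library left out, the lone library is assumed to vary like the other group. The values then ran from -0.57 to 0.44 for Apob, -0.33 to 0.16 for Mttp, -0.30 to 0.53 for Sar1b, -0.21 to 1.01 for Apoc3, -0.10 to 0.63 for Apoc2, -0.0685 to 0.21 for Creb3l3, 0.07 to 1.16 for Apoa1, 0.08 to 0.47 for Apoa4 and -0.18 to -0.01 for Apobec1. The number of called genes, 8 in the edgeR fit, was 14 without a filter on low counts, 20 in DESeq2, 20 in limma-voom, 48 with the replicate block, 13 on log2(TPM + 1) and 38 to 84 with 1 library left out. The block changed no call among the 9 genes. Transcripts gave 0 calls under every setting run. With 2 libraries per group, the 95% intervals beside each gene mark the differences that these data leave possible.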
